A study of Mus musculus with 3 samples.

Results

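The BCL-2 family decides at the outer membrane of the mitochondrion whether a cell lives or dies, and its messages are described here in activated regulatory T cells of the mouse. Its 10 genes were taken by name: the pro-survival genes Bcl2, Bcl2l1 and Mcl1, the effectors Bax and Bak1, and the BH3-only genes Bcl2l11, Bbc3, Pmaip1, Bid and Bad. They are 10 of 55536 genes in the deposited gene tables, and all 10 were found there by symbol through the GENCODE M21 annotation.

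The effectors BAX and BAK open pores in that membrane, which lets cytochrome c out and starts the caspases. The pro-survival proteins BCL-2, BCL-XL and MCL-1 hold the effectors in check. The BH3-only proteins are the sensors: they bind the pro-survival proteins, and some of them also switch on the effectors directly. In regulatory T cells, CD4 T cells that restrain immune responses, interleukin-2 is known as a survival signal, loss of MCL-1 is known to be fatal, and BIM, the product of Bcl2l11, is known to drive death when interleukin-2 is withdrawn.

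Polyadenylated RNA of primary cells from a male mouse of 9 weeks was sequenced. The strain is named Foxp3GFP-DTRCD4CreERT2R26tdTomato, a name that lists a Foxp3 allele with green fluorescent protein and the diphtheria toxin receptor, a tamoxifen-inducible Cre driven by Cd4, and a red fluorescent reporter. Whether toxin or tamoxifen was given, how the cells were activated and how they were sorted is not given in the sources used here, and the tissue is named only as the whole organism. There was 1 group of 3 libraries, numbered technical replicates 1, 2 and 3 of 1 biological replicate. No resting or otherwise treated cells were part of it, so levels are described and only libraries are compared. Each ± below is the SD over the 3 libraries (n = 3), and SDs and p-values alike cover only how far libraries of the same biosample lie apart, which may be technical. RNA was taken from many cells together, so fewer cells with a message and less message per cell cannot be told apart.

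The libraries held 20783676, 21206219 and 18496690 estimated counts in replicates 1, 2 and 3. All 6 markers of regulatory T cells (Foxp3, Il2ra, Ctla4, Ikzf2, Tnfrsf18, Izumo1r) and all 6 of T cells were detected, that is, at 1 TPM or more in every library. TPM is a level scaled to transcript length and library size. Other cell types were less evenly seen, and their part in the levels below was not tested. Of 6 erythroid markers all were detected, with a summed level of 910 to 1272 TPM, against 7874 to 8833 TPM for the T cell markers. Fewer were found of B cells (5 of 8, summed 63.3 to 72.8 TPM), myeloid and dendritic cells (4 of 10, 23.0 to 35.1 TPM, S100a8 at 0), CD8 T cells (1 of 2), plasma cells (1 of 4, Tnfrsf17 at 0) and NK cells (1 of 5). No stromal or endothelial marker of 7 was detected, and Pdgfra and Pdgfrb were at 0. Replicate 2 stood apart: all 5 heat shock genes and all 6 erythroid markers were highest there, and all 9 proliferation genes and all 6 T cell markers were lowest there, by CPM, counts scaled to library size alone. The 6 regulatory T cell markers went otherwise: all were lowest in replicate 3, with 3 highest in replicate 1 and 3 in replicate 2.

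The 5 genes of multidomain proteins share a splice position that bears on the isoforms below. In each of them the last coding junction, where the exon for the C-terminal membrane anchor is joined, falls between codons, directly after TGG and before a G, inside the stretch that encodes the BH2 region. The 20 coding bases before the junction are shown in lower case and the 20 bases after it in capitals, 5′ to 3′, from the GENCODE M21 transcripts (mm10).
Bcl2-201: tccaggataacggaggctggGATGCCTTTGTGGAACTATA
Bcl2l1-201: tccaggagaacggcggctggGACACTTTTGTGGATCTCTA
Mcl1-201: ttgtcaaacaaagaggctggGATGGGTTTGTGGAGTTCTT
Bax-201: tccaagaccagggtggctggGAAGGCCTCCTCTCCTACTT
Bak1-202: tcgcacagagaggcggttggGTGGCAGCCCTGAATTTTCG
The junction follows coding base 576 in Bcl2, 564 in Bcl2l1, 879 in Mcl1, 474 in Bax and 525 in Bak1, counted from the A of the start codon. The motif TGG before and G after the last coding junction, read on the coding strand only, was taken from these 5 genes. Its presence in all 5 was therefore set in advance and is not a result. None of the 5 BH3-only genes had it. Among 18443 protein-coding genes with 2 or more coding exons it was found in 259 (1.40%). The position between codons is not particular to the multidomain genes, since Bcl2l11, Bbc3, Bid and Bad have it too and only Pmaip1 does not. This is a description of the annotation, not of the reads.

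Bax was the most abundant of the 10 messages and Bak1, its partner effector, the least. Bax was at 212, 204 and 206 TPM in replicates 1, 2 and 3 (207 ± 4.03). Bcl2 followed with 125, 131 and 117 TPM, and Bcl2l1 with 65.5, 66.9 and 69.7 TPM. The order then ran through Bid, Bad, Mcl1, Bcl2l11, Pmaip1 and Bbc3 down to Bak1 at 1.87, 2.60 and 1.62 TPM. Of the 9 pairs of neighbours in this order, 8 had ranges that did not overlap; the exception was Bad and Mcl1, which overlapped. The order was the same when any 1 library was left out. It was the same on the FPKM scale too, but that adds no support. Within a library FPKM differs from TPM only by a constant factor. All 10 genes were detected in every library. Their median was 35.8 ± 0.888 TPM, beside 26.05 TPM for the 10425 detected of 22028 protein-coding genes, and 6 of the 10 stood above that value. Bax was higher than 96.5% of all 22028 protein-coding genes, Bcl2 than 93.7%, Bbc3 than 61.4% and Bak1 than 54.8%. These percentages include the genes that were not detected. Bbc3 and Bak1 were both below the 26.05 TPM of the detected ones.

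**Figure D1:**
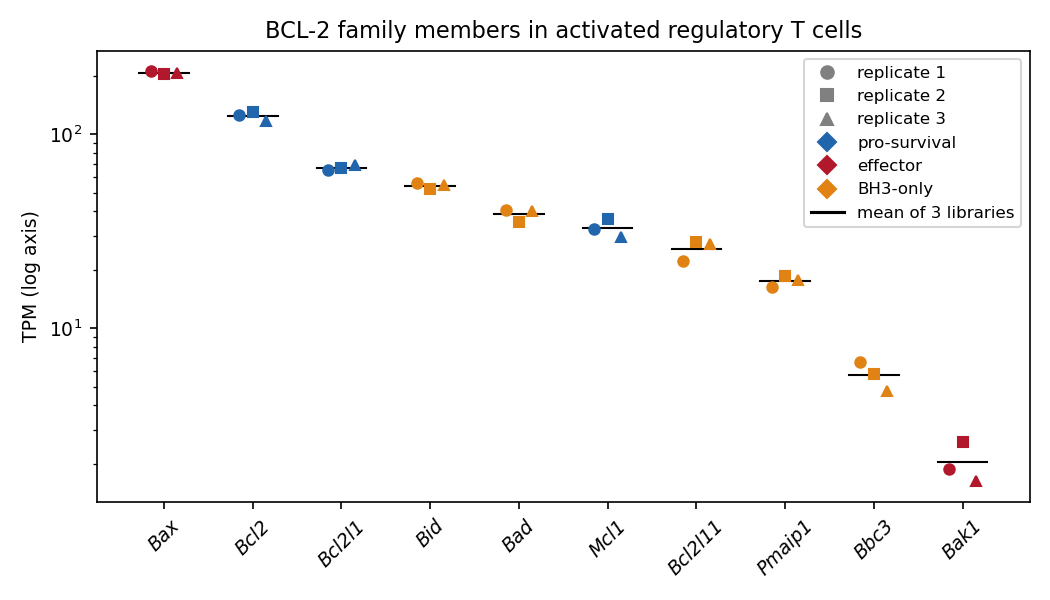
Level of each gene in TPM (log axis), with 1 point per library, the symbol giving the replicate, the colour the class and the line the mean of 3 libraries. Bax stands at 207 TPM on the left and Bak1 at 2.03 TPM on the right, and only the points of Bad and Mcl1 overlap between neighbours.

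Among the 3 pro-survival genes Bcl2 held the largest share of message when all its transcripts were counted. Bcl2 (ENSMUSG00000057329.7, chr1:106538178-106714274, minus strand, mm10) encodes the founding member of the family. Its 124 ± 7.12 TPM made up 55.3 ± 1.14% of the summed level of the 3 pro-survival genes. On average it was 1.84-fold above Bcl2l1 (log2 0.88 ± 0.12) and 3.78-fold above Mcl1 (log2 1.92 ± 0.07). The differences between these 3 genes were many times the spread between libraries. They cover all transcripts of each gene, and the lead over Bcl2l1 was much smaller for transcripts with the full coding run alone. Those were at 57.0, 63.6 and 53.2 TPM for Bcl2 and at 50.1, 50.8 and 53.0 TPM for Bcl2l1 in replicates 1, 2 and 3, nearly equal in replicate 3.

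Bcl2 reads were divided between 2 annotated coding transcripts that part exactly at the junction shown above. Bcl2-201 has 2 exons and 708 coding bases and ends in the exon for the membrane anchor. Bcl2-202 is a single exon with 597 coding bases that reads on into the intron, and it encodes the form known as BCL-2 beta, which lacks the anchor.
Bcl2-202: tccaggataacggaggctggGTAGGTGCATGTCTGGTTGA
The capitals are the bases after the same coding base 576, and they are the first bases of the intron, opening with the GT of its splice site; the unbroken run shared with Bcl2-201 ends after the leading G. Bcl2-202 was at 68.1, 67.2 and 63.4 TPM and Bcl2-201 at 57.0, 63.6 and 53.2 TPM. The read-on transcript thus took 53.4 ± 1.75% of the gene's transcript TPM and led in every library, with 51.4% at its lowest in replicate 2. By estimated counts the order turned round: 2513, 2599 and 2088 counts fell to Bcl2-202 and 5376, 6288 and 4481 to Bcl2-201, so its share was 31.0%. The transcripts are 2841 and 7191 bases long, and TPM divides by length while counts do not. Unspliced precursor and a finished message of this form share the same bases, so they cannot be told apart in these tables. An antisense gene, D630008O14Rik, shares 558 exon bases with Bcl2 on the other strand and held 88.2 to 93.8 counts, beside 6569 to 8887 for Bcl2; whether counting used the strand is not given.

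Bcl2l1 (ENSMUSG00000007659.18, chr2:152780668-152831728, minus strand) encodes BCL-XL, which is known to rise on activation of T cells. Its 67.4 ± 2.13 TPM varied little: the highest library was 1.06-fold above the lowest. Most of its transcript TPM lay in 2 transcripts with the full run of 699 coding bases (76.5, 75.9 and 76.1%). A further 19.6 ± 1.70% lay in Bcl2l1-205 and Bcl2l1-206, which read on past the last coding junction as Bcl2-202 does and have 627 coding bases.
Bcl2l1-205: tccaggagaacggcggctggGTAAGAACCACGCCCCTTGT
The capitals are the bases after coding base 564, and Bcl2l1-206 is identical there. The read-on share was 20.2, 17.6 and 20.8%, lowest in replicate 2, so it took less of the gene than in Bcl2 in every library. The pro-death short form known as BCL-XS is made by an upstream splice site in the same exon. None of the 9 annotated transcripts of Bcl2l1 has a complete coding run that joins such a site to the last exon, so that form was not measured here.

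Mcl1 (ENSMUSG00000038612.16, chr3:95658788-95663176, plus strand) encodes a short-lived protein that binds BIM, NOXA and BAK. It was the lowest of the 3 pro-survival genes, with 32.5, 36.7 and 29.7 TPM (33.0 ± 3.53), and held 14.7 ± 0.962% of their sum. Replicate 2 was the highest and replicate 3 the lowest. All of its reads, 1445, 1714 and 1181 counts, were given to Mcl1-201, the transcript with the full 993 coding bases, and Mcl1-202, with 855, was listed at 0 in every library. Another annotated gene, Gm20432, matched 251 bases of the coding sequence at 91.2% identity, but the counts of Mcl1 were whole numbers, within 0.005, in every library, as they were for 6 of the 10 genes.

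The 2 effectors stood at opposite ends of the order. Bax (ENSMUSG00000003873.11, chr7:45461697-45466898, minus strand) held 99.0 ± 0.254% of the summed effector level, and Bak1 (ENSMUSG00000057789.14, chr17:27019810-27029009, minus strand) the remaining 0.972 ± 0.254%. Bax was 104-fold above Bak1 (log2 6.70 ± 0.37), a difference far beyond the spread between libraries. For Bak1 this rests on few reads: 48.7, 68.7 and 36.8 estimated counts, or 2.34, 3.24 and 1.99 CPM, with 95% exact Poisson intervals of 1.73 to 3.10, 2.52 to 4.10 and 1.40 to 2.75 CPM that overlap. Replicate 2 was the highest, but the 3 intervals share values.

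Bak1 has a neighbour on the opposite strand that shares exon bases with it. The 2 annotated Ggnbp1 genes share 437 and 177 exon bases with it. The first held 10.7, 10.8 and 9.21 counts and the other 20.6, 7.53 and 12.6, and the strand setting that would divide such reads is not given. With all of those counts added, Bak1 came to 80.0, 87.1 and 58.6 counts, or 3.85, 4.11 and 3.17 CPM, where Bax had 112, 111 and 108 CPM. The transcripts that received the Bak1 reads were mostly not the coding one. Bak1-202, with the full 627 coding bases, was given 8.19 counts in replicate 1 and was listed at 0 in the others. The rest went to Bak1-204 and Bak1-201, both annotated as targets of nonsense-mediated decay: Bak1-204 took 58.3 and 100% in replicates 1 and 2, and Bak1-201 took 100% in replicate 3. These shares changed from library to library, and no transcript led in all of them.

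Bax reads fell mainly to Bax-201, which encodes the full protein known as BAX alpha. It was at 142, 128 and 123 TPM, or 63.1 ± 3.78% of the gene's transcript TPM. Bax-205, with 513 coding bases, leaves the full form at the last coding junction shown above and joins it to bases that begin further into the last exon.
Bax-205: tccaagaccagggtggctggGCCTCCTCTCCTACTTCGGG
Its share was 14.8, 21.6 and 25.4% in replicates 1, 2 and 3 (20.6 ± 5.37%), a wider spread than that of Bax-201. Bax-203, whose annotated coding run is incomplete, took 14.5 ± 1.18%. A neighbouring gene on the same strand, Gm45808, shares 192 exon bases with Bax and held 0.54 to 7.41 counts, beside 2005 to 2355 for Bax.

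Of the 5 BH3-only genes, Bid and Bad were the most abundant and Bbc3 the least. Bid (ENSMUSG00000004446.12, chr6:120891930-120916853, minus strand), whose protein carries the death receptor signal to mitochondria once caspase-8 has cut it, was at 56.2, 52.0 and 54.8 TPM. It held 38.3 ± 1.13% of the summed BH3-only level, and 97.3, 99.3 and 96.5% of its transcript TPM lay in Bid-201, which has the full 585 coding bases. Bid shares 628 exon bases with Bcl2l13 on the opposite strand, and Bcl2l13 was at 28.2, 24.1 and 28.5 TPM.

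Bad (ENSMUSG00000024959.14, chr19:6941861-6951899, plus strand) encodes a sensor of growth factor signals that 14-3-3 proteins hold in the cytosol when it is phosphorylated. It was at 40.8, 35.2 and 40.1 TPM, lowest in replicate 2. Its transcripts begin translation at different starts: Bad-201 has 612 coding bases, and Bad-202, Bad-206 and Bad-209 share a run of 486. The stretch in capitals is coding in the long form and not in the short form. It is also coding in Bad-203, which was listed at 0 in every library. The lower case that follows opens with the ATG at which the short form starts.
Bad-201: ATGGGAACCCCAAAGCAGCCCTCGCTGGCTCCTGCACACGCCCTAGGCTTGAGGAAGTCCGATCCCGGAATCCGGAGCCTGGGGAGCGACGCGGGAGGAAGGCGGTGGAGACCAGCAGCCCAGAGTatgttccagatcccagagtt
The short form took 55.0, 68.0 and 53.4% of the gene's transcript TPM and the long form 19.1, 19.7 and 14.7%, so the short form was ahead in every library. Bad-202 alone took 54.0, 66.8 and 39.2%. Bad-205, with an incomplete coding run, moved from 16.4 to 2.70 and 19.5%, and Bad-207, which retains an intron, took 9.66 ± 1.91%. Bad shares 524 exon bases with Gpr137 on the opposite strand, whose 316.9 to 333 counts stood beside 422 to 538 for Bad.

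Bcl2l11 (ENSMUSG00000027381.16, chr2:128126038-128162547, plus strand) encodes BIM, which binds every pro-survival protein of the family and can activate BAX and BAK. It was at 22.1, 27.9 and 27.1 TPM, lowest in replicate 1, and held 18.1 ± 2.30% of the BH3-only sum. BIM has an extra-long, a long and a short form. The extra-long form differs from the long one by a segment of 168 coding bases, shown in capitals between its flanks, which encodes the sites where ERK kinases phosphorylate BIM.
Bcl2l11-205: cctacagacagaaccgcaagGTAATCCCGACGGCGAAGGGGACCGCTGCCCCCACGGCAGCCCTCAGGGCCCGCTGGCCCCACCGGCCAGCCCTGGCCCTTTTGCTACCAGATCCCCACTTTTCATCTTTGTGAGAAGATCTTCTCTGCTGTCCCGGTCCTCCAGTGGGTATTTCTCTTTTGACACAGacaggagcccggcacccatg
Bcl2l11-203: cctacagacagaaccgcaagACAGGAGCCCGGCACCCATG
Bcl2l11-201: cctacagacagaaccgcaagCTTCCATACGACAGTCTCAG
The lower 2 lines show the same coding base 124 joined directly to the next segment in the long form (Bcl2l11-203) and to a still later one in the short form (Bcl2l11-201; Bcl2l11-204 is identical there), with the bases after the junction in capitals. The short form also lacks the stretch through which BIM binds dynein light chain.

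The extra-long form of BIM led in every library. Bcl2l11-205 was at 13.1, 15.6 and 15.99 TPM, or 59.3, 56.0 and 58.9% of the gene's transcript TPM. The long form, Bcl2l11-203, was listed at 0 counts in all 3 libraries, with upper bounds of the quantifier's credibility interval at 0.936, 0.734 and 1.06 TPM, an interval whose level the files do not state. These bounds need not limit the listed TPM: for Bcl2l11-205 they were 12.6, 14.96 and 14.8 TPM, below its listed levels. The 2 transcripts of the short form together took 13.5, 13.8 and 18.6%. By estimated counts the extra-long form held 80.2% and the short form 5.72%, since Bcl2l11-205, at 5036 bases, is longer than Bcl2l11-201, at 2490, and Bcl2l11-204, at 672. The short form was divided unevenly between its 2 transcripts. In replicates 1, 2 and 3 Bcl2l11-201 took 7.46, 9.68 and 1.36% of the TPM and Bcl2l11-204 took 6.06, 4.12 and 17.2%. Bcl2l11-202, with 273 coding bases, took 14.03 ± 2.71% and the noncoding Bcl2l11-208 took 12.0 ± 1.69%. The extra-long form was ahead by both measures, while the amount by which it led depended on the measure.

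Pmaip1 (ENSMUSG00000024521.8) encodes NOXA, a p53 target that binds MCL-1. It was at 16.4, 18.6 and 17.7 TPM, and Pmaip1-201 took 100, 97.4 and 100% of its transcript TPM. Bbc3 (ENSMUSG00000002083.13, chr7:16308393-16318205, plus strand) encodes PUMA, another p53 target, which binds all the pro-survival proteins. It was the lowest BH3-only gene of the 5, with 6.70, 5.78 and 4.75 TPM, and Bbc3-201, with the full 579 coding bases, took 86.9, 79.6 and 86.7%. The retained-intron transcript Bbc3-203 took 13.2 ± 7.22%. PUMA message was 3.08-fold below NOXA message (log2 1.62 ± 0.31), and the ranges of these 2 genes did not overlap. For 8 of the 10 genes the same transcript held over 50% of the TPM in every library, the exceptions being Bad and Bak1.

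**Figure D2:**
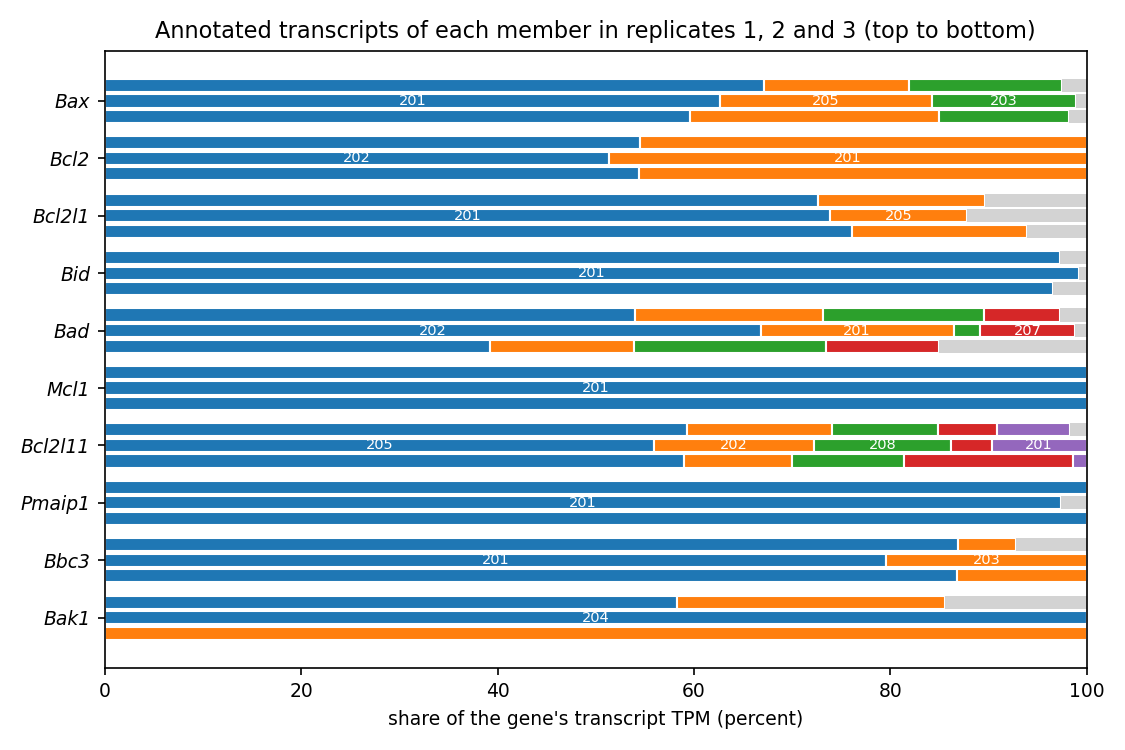
Share of each annotated transcript in the summed transcript TPM of its gene (percent), with 3 bars per gene for replicates 1, 2 and 3 from top to bottom. Colours give the order of transcripts within a gene by mean share (blue first), numbers are the transcript suffixes, and grey holds those under 5%; Bcl2 is split 53.4 to 46.6% and Bak1 changes its leading transcript in replicate 3.

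Summed over each class, pro-survival and effector messages were close and BH3-only messages lower. The 3 pro-survival genes summed to 223, 234 and 216 TPM, the 2 effectors to 213, 206 and 208 TPM, and the 5 BH3-only genes to 142, 139 and 144 TPM. The pro-survival sum was 1.58-fold the BH3-only sum (log2 0.66 ± 0.08), with every library above 0.58. Its log2 ratio to the effectors was 0.06, 0.18 and 0.06 (0.10 ± 0.07), above 0 in all 3 libraries. That sign rests on taking sums: with the median of each class in place of its sum the log2 ratio to the effectors was -0.63, since the effector median is the mean of Bax and Bak1. The pro-survival sum also includes Bcl2-202, at 68.1, 67.2 and 63.4 TPM, which cannot be told from unspliced precursor. That is more than the gap between the pro-survival and effector sums in every library.

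The choice of pro-survival genes mattered more than any library. Bcl2a1b and Bcl2a1d, genes of the pro-survival protein A1 that NF-kappaB induces in activated lymphocytes, are outside the 10 but were abundant. Bcl2a1b was at 276, 213 and 274 TPM, above Bax in each library, and Bcl2a1d at 90.5, 60.7 and 96.9 TPM; both were lowest in replicate 2. With these and Bcl2a1a (1.85, 1.01 and 1.69 TPM) counted among the pro-survival genes, a choice made after their values were seen, the log2 ratio was 1.98 ± 0.10 to the BH3-only sum and 1.42 ± 0.11 to the effectors. The Bcl2a1 genes are near-identical copies whose reads the quantifier divides, so the split among them is uncertain while their sum, 368, 274 and 372 TPM, is less so. In a second deposited gene table, described below, Bcl2a1b held 97, 91 and 96 counts in replicates 1, 2 and 3. Bax had 857, 837 and 778 counts there, and the cause of this difference from the main tables was not tested.

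Whether the 3 libraries differed by more than counting noise was asked of every gene with Pearson's chi-square test on counts, adjusted by the Benjamini-Hochberg method over 14642 genes. Bcl2, Mcl1 and Bcl2l11 passed, 3 of the 10, beside a background of 44.9% of all genes tested; among the 9956 genes with a mean count of 100 or more it was 55.4%. The count is below the background and says nothing particular about these genes. Their median coefficient of variation was 7.63%, beside 10.4% for all genes tested and 7.30% for the better counted genes.

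All 3 genes that passed were highest in replicate 2. Of all genes tested 14.2% passed and were highest there, which is 31.6% of the genes that passed. Bcl2 was at 380, 419 and 355 CPM in replicates 1, 2 and 3, a 1.18-fold range (log2 0.24, adjusted p = 9.96e-23 by the chi-square test). Mcl1 was at 69.5, 80.8 and 63.8 CPM, a 1.27-fold range (log2 0.34, adjusted p = 7.53e-09 by the same test). Bcl2l11 was at 51.9, 66.3 and 60.7 CPM, a 1.28-fold range (log2 0.35, adjusted p = 8.81e-08). Bcl2 and Mcl1 were lowest in replicate 3 and Bcl2l11 in replicate 1, so the 3 genes did not order the libraries alike.

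Replicate 2 was also the library in which all 5 heat shock genes were highest. Hspa1b was at 5.63, 44.3 and 4.54 TPM, and the summed level of the 5 was 2058, 3134 and 2288 TPM. The erythroid markers summed to 910, 1272 and 1148 TPM, and T cell markers to 8678, 7874 and 8833 TPM. Regulatory T cell markers summed to 2961, 2834 and 2717 TPM, and all 6 were lowest in replicate 3 by CPM. The part of these in the 3 differences was not tested. Without replicate 2, Mcl1 no longer passed (adjusted p = 0.0917, background 27.7%), and without replicate 1, Bcl2l11 did not (adjusted p = 0.0798, background 30.3%). Bcl2 passed whichever library was left out.

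The other 7 genes did not pass. Bax, Bid and Bcl2l1 had the narrowest ranges, 1.04-, 1.04- and 1.06-fold, with adjusted p of 0.612, 0.678 and 0.245. Bad and Pmaip1 spanned 1.13- and 1.15-fold (adjusted p = 0.214 and 0.0992). Bbc3 and Bak1 had wider ranges, 1.38- and 1.63-fold, but on mean counts of 120 and 51.4 they did not pass (adjusted p = 0.0984 and 0.0765). Without replicate 3, Pmaip1 passed too (adjusted p = 0.0448, background 34.0%).

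**Figure D3:**
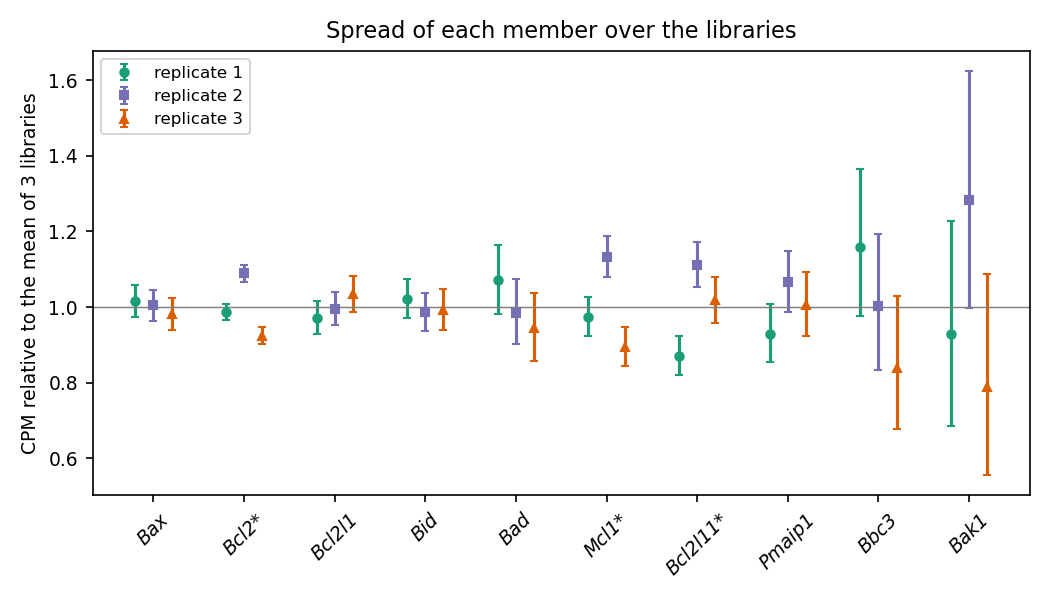
CPM of each gene in each library divided by its mean over 3 libraries; bars are 95% exact Poisson intervals, which cover counting error only, and an asterisk marks an adjusted p below 0.05. Replicate 2 stands highest for Bcl2, Mcl1 and Bcl2l11, and the bars widen for Bbc3 and Bak1, which have few counts.

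In a second deposited gene table, with whole-number counts and far fewer of them, only Mcl1 passed (adjusted p = 0.00431), while Bcl2 had adjusted p = 0.433 and Bcl2l11 had 0.644. The background there was 23.2%. Totals in that table were 29.3 to 31.1% of the main ones, but for Bcl2 it held 11.8 to 13.8% of the counts, for Bcl2l11 11.4 to 13.3%, and for Bad 53.5 to 59.9%. How that table was counted is not given, and the cause of the difference was not tested.

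The remaining relatives of the family were mostly low. Counts of genes that differed between libraries, in this and the following lists, stand beside the same 44.9% of all genes tested. Bcl2l2, a further pro-survival gene, was at 0.55, 0.78 and 0.29 TPM. Bcl2l10 had 0 counts in every library, which by the 3-count limit allows up to 0.144, 0.141 and 0.162 CPM; the exact Poisson intervals end at 0.177, 0.174 and 0.199 CPM. Of 5 such pro-survival genes outside the 10, 4 could be tested and Bcl2a1b and Bcl2a1d passed. Bok, an effector-like gene, had 6 counts in all, and the BH3-only gene Hrk had 1. Bik was at 2.89 ± 1.04 TPM, and Bmf, whose protein like BIM is tied to the cytoskeleton, was at 1.36, 1.86 and 1.44 TPM and passed narrowly (adjusted p = 0.0456). Bcl2l11 stood above both Bik and Bmf, with ranges that did not overlap.

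More distant relatives were on the whole higher. Bnip3l, a mitophagy receptor, was at 414 ± 24.6 TPM, Bnip2 at 111 ± 1.75 TPM, Bcl2l12 at 29.4 ± 3.12 TPM and Bcl2l13 at 26.9 ± 2.45 TPM. Bnip3, a second mitophagy receptor, was at 16.6 ± 2.05 TPM, and Bcl2l14 and Bcl2l15 were at 3.42 ± 0.452 and 1.51 ± 0.464 TPM. Of these 7 genes, Bnip3l and Bcl2l13 differed between libraries.

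Downstream of the family, all 13 genes of the mitochondrial and caspase step were detected, with a median of 40.1 ± 1.82 TPM. Vdac2, the channel that holds BAK at the membrane, was at 148 ± 3.02 TPM, Diablo, which frees caspases from their inhibitors, at 95.3 ± 3.26 TPM, and Casp6 at 62.7 ± 2.94 TPM. Casp9, the initiator, was at 16.5 ± 0.110 TPM and Endog, a mitochondrial nuclease, at 1.86 ± 0.805 TPM. The low level of Endog is uncertain. It had 35.55, 26.6 and 12.44 estimated counts, but 185, 183 and 152 counts in the second deposited gene table, a difference whose cause was not tested. Of the 13, 6 differed between libraries, a share near the background of 44.9%, and none of the 6 was highest in replicate 2, as 31.6% of all genes that differed were.

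Of the inhibitor of apoptosis (IAP) family, Birc2 (117 ± 3.83 TPM) and Birc3 (115 ± 6.97 TPM) were above Birc6 (35.3 ± 2.89 TPM), Birc5 (32.6 ± 11.2 TPM) and Xiap (13.3 ± 1.98 TPM). All but Birc6 differed between libraries. Birc5, which also serves in mitosis, spread most: 43.6, 21.3 and 33.0 TPM. It was lowest in replicate 2, as the proliferation genes were.

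The death receptor arm, which reaches mitochondria through BID, was present from receptor to caspase. Casp8 was at 222 ± 4.28 TPM, Cflar, its inhibitor, at 121 ± 8.60 TPM, the receptor Fas at 96.9 ± 7.35 TPM and the adaptor Tradd at 45.2 ± 9.53 TPM. Fadd, the adaptor that joins Fas to caspase-8, was far lower at 3.53 ± 0.820 TPM, and Tnfrsf10b, the receptor for TRAIL, was at 1.20 ± 0.165 TPM. In this list 8 of 9 genes differed between libraries, beside 44.9% of all genes tested and 55.4% of the better counted ones.

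Regulators of the family's genes and proteins were also measured. Trp53, which drives Bbc3 and Pmaip1, was at 197 ± 7.13 TPM and Myc at 186 ± 9.83 TPM. The p53 ligase Mdm2 was at 93.7 ± 6.70 TPM and Ddit3 at 42.6 ± 4.74 TPM. Foxo3, which drives Bcl2l11, was at 1.72 ± 0.293 TPM. Its relatives Foxo1 and Foxo4 were at 10.8 ± 0.781 and 1.91 ± 0.246 TPM, and Trp73 was at 0.100 ± 0.053 TPM. Of 8 tested, 6 differed between libraries (44.9% of all genes tested did) and 5 of the 6 were highest in replicate 2 (31.6% of all genes that differed were).

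Among genes for partners that control MCL-1 and BIM protein, the dynein light chain Dynll1 was the highest at 491 ± 76.1 TPM, with its relative Dynll2 at 6.71 ± 0.616 TPM. The MCL-1 deubiquitinase Usp9x was at 78.4 ± 3.60 TPM and the MCL-1 ligase Huwe1 at 50.2 ± 3.36 TPM. Btrc (29.0 ± 1.03 TPM), Mul1 (11.8 ± 1.20 TPM), Fbxw7 (3.39 ± 0.425 TPM) and Trim17 (0.217 ± 0.040 TPM) are ligase genes. Dynll1, Usp9x, Huwe1 and Fbxw7 differed between libraries, 4 of 8, a share near the background of 44.9%. Each was highest by CPM in replicate 2, as were 31.6% of all genes that differed.

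The chain from the interleukin-2 receptor to STAT5, which supports Bcl2 and Mcl1, was abundant throughout. Il2rg was at 1427 ± 42.8 TPM, Il2rb at 918 ± 89.0 TPM, Jak1 at 403 ± 69.0 TPM and Il2ra at 352 ± 41.0 TPM. Jak3 was at 166 ± 32.8 TPM, Stat5b at 143 ± 3.59 TPM and Stat5a at 92.5 ± 8.20 TPM. All 7 differed between libraries, beside 55.4% of genes with a mean count of 100 or more; Il2ra and Il2rb were highest in replicate 2.

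The 14-3-3 genes, whose proteins hold phosphorylated BAD, ranged widely. Ywhaz was at 847 ± 37.4 TPM, Ywhaq at 271 ± 17.4 TPM, Ywhae at 208 ± 1.11 TPM and Ywhah at 194 ± 15.2 TPM. Ywhab (72.9 ± 8.64 TPM) and Ywhag (61.2 ± 0.245 TPM) were lower, and Sfn was lowest at 8.44 ± 0.486 TPM. All but Sfn were above Bad itself, and 4 of the 7 differed between libraries. The order was another in the second deposited gene table. There Ywhae held 1147, 1195 and 1106 counts, Ywhaz 113, 116 and 114, and Ywhaq 72, 84 and 63, and the cause was not tested.

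**Figure D4:**
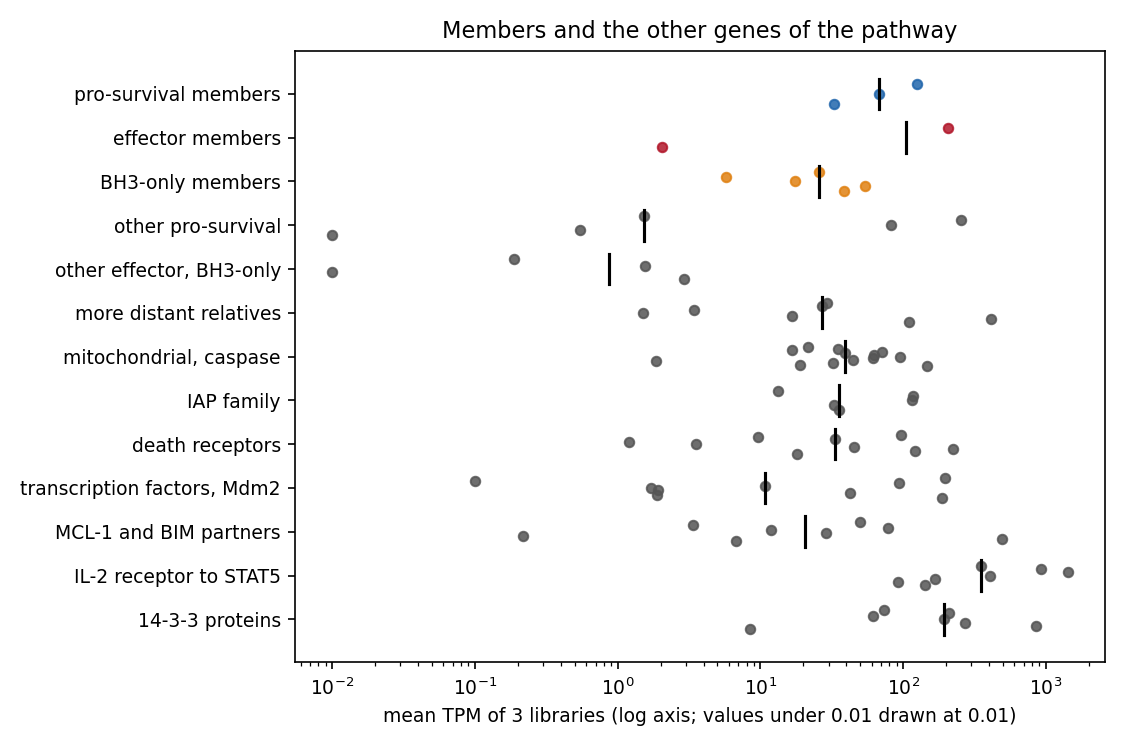
Mean TPM over 3 libraries (log axis) of each gene in the 3 classes and in 10 lists of related genes, 1 point per gene, with the list median as a line and values under 0.01 drawn at 0.01. The 7 genes from the interleukin-2 receptor to STAT5 sit furthest right, between 92.5 and 1427 TPM, and the other effector and BH3-only genes furthest left.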

How the data were processed

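Polyadenylated RNA, fragmented by shearing per the labels' protocols, was measured in 3 technical replicate libraries of 1 biosample. The authors deposited, per library, gene and transcript tables on mm10 with GENCODE M21, per the file headers and the lists of files deposited with each library. Their estimated counts (expected counts) divide ambiguous reads, and their TPM and FPKM values, made by the authors, scale by effective length and depth. The deposited signal bounds are credibility limits on the TPM scale, and their level is not given in the sources used here. A second deposited table holds whole-number counts for GENCODE M4 genes. Which aligner, quantifier version, strand setting and counting tool were used is not given in the sources used here.

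Rows that name no gene (26345 of 81881; 0.189 to 0.271% of counts) were left out. Libraries were compared on estimated counts rounded to whole numbers, per gene with a summed count of 30 or more, by Pearson's chi-square test (2 degrees of freedom) against library totals, with Benjamini-Hochberg adjustment at 0.05; with 1 group, edgeR's quasi-likelihood test has no contrast. Counts were simulated for this comparison over 14627 genes with Poisson noise only. Changes were planted in 50 genes per fold, all with an expected mean count of 100 or more. The test called 80.0% of genes changed 1.25-fold and 98.0% of those changed 1.5-fold. These rates do not cover genes with fewer counts, such as Bak1. Totals were 20783676, 21206219 and 18496690, so 3 counts, the limit a count of 0 allows, are 0.144, 0.141 and 0.162 CPM. Intervals are 95% exact Poisson and, like these floors, cover counting error only: without molecular identifiers, reads need not be independent molecules. edgeR gave a common coefficient of variation of 0.114 over 13846 genes. Transcript shares are shares of summed transcript TPM; coding runs and sequences came from GENCODE M21 transcripts, and near copies from BLAST 2.17.0.

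The 10 genes, the 10 related lists and the 11 marker lists were chosen with earlier results of these data known. By rule, all 10 genes and lists of up to 8 genes were named in full. In longer lists the 4 genes with the highest mean TPM and the 2 with the lowest were named. Transcripts were named at 5% or more or with a known long or short form. Hspa1b, Foxo1, Foxo4, Bcl2l1-206, Bak1-202, Mcl1-202, Bad-203, overlapping genes and single markers were named after their values were seen. A gene that this rule names is not reported here; it stays in the counts and list medians. The alternatives were DESeq2 and TMM scaling, lower and higher count filters, a likelihood ratio statistic, the second gene table, FPKM, a pseudocount of 1 TPM, class medians, transcript counts, coding transcripts only and leaving out each library. Tools were Python 3.11.15 with scipy 1.17.1, pandas 2.3.3, matplotlib 3.10.9 and numpy 2.4.6, and R 4.3.3 with DESeq2 1.42.0 and edgeR 4.0.16.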

Additional observations from a re-analysis of the deposited data

How the results depend on the processing

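Under the alternatives 38 summary values stayed within the spread between libraries or, for counts, within 1.5 times; 4 counts fell further, 3 values moved and 1 turned. The FPKM values among those that stayed were bound to do so, since FPKM and TPM differ within a library only by a constant factor. The count of 3 genes that differed between libraries was 3 under TMM and DESeq2 scaling, both other count filters and the likelihood ratio statistic, 1 in the second gene table, and 2 to 4 with 1 library left out. The log2 ratio of pro-survival to BH3-only sums moved from 0.66 to 1.40 with class medians and to 1.98 with the Bcl2a1 genes, and was 0.62 to 0.70 with 1 library left out. The log2 ratio to the effectors turned to -0.63 with class medians, moved to 1.42 with the Bcl2a1 genes, and was 0.06 to 0.12 with 1 library left out. Genes with 1 leading transcript over 50% in every library numbered 8 to 10, with 10 when replicate 3 was left out. The median level was 35.4 to 36.3 TPM with 1 library left out. By estimated counts Bcl2-201 held 69.0% and the long form of Bad 25.5%; among coding transcripts alone, the extra-long form of Bcl2l11 held 66.4%. All genes that differed numbered 6576, and 4156, 3782 and 4698 without replicates 1, 2 and 3, and 2520 in the second gene table. Apart from the class medians, whose construction sets the value, the cause of these shifts was not tested. No paired analysis was possible because there was 1 group. Depth limits Bak1 and Bbc3, whose mean counts are 51.4 and 120.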
